A study of Mus musculus with 8 samples.

Results

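Amino acid catabolism enzymes were followed in whole mouse kidney as 44 genes, picked by symbol from the pathways below, among the 55367 genes of the count table. They act in the breakdown of lysine (3 genes), proline and hydroxyproline (3), tyrosine (4), histidine (4), tryptophan (5), the branched-chain amino acids (14), glycine and choline derivatives (5), sulfur amino acids (3), D-amino acids (2) and aspartate (1). RNA-Seq was performed on 4 mice labelled Maf conditional KO (c-Maf ΔTAM, the knockout mice below) and on 4 labelled Maf flox/flox (c-Maf fl/fl, the control mice below). All 8 mice were C57BL/6J, 8 weeks of age, and carried floxed Maf, the gene of the transcription factor c-Maf. The knockout mice also carried CAG-Cre-ERTM, a transgene that makes tamoxifen-activated Cre recombinase in most tissues, so deletion was not limited to the kidney. Both genotypes received tamoxifen (TAM), and the control mice lacked the Cre transgene. The comparison asked which transcripts of the adult kidney changed when c-Maf was deleted.

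The kidney takes up filtered amino acids in the proximal tubule, and many of the enzymes that break them down act in the mitochondria of the same cells. Most of these pathways strip the amino group and then oxidize the carbon skeleton to intermediates that enter the citric acid cycle. The tryptophan pathway also supplies quinolinate for the synthesis of NAD.

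Maf itself fell from 380, 342, 305 and 351 CPM (read counts scaled to the normalized library size) in control mice 1 to 4 to 9.06, 34.5, 29.6 and 10.1 CPM in knockout mice 1 to 4. The log2 fold change was -4.05 ± 0.51 (SE, n = 4 per genotype), with adjusted P = 0.0115. Here and below, adjusted P is the Benjamini-Hochberg value from edgeR's quasi-likelihood test over 20149 tested genes, with a threshold of 0.05, and each fold change sets the knockout against the control mice. Libraries held 16649129 to 22990257 counts. Xist, the RNA of the inactive X chromosome, had 17618 to 22387 counts in 5 mice and 2 to 22 counts in 3 mice, so both sexes were present although the labels give none. The mice with low Xist were knockout mouse 1 and control mice 3 and 4. Among the 5 mice with high Xist alone, the log2 fold change of Maf was -3.87 (adjusted P = 0.108). The share of counts from mitochondrial genes was 32.3% in knockout mouse 1 and 17.1% to 25.5% in the other mice. The labels give whole kidney as the tissue but describe the extraction as from liver. Of 10 hepatocyte markers, Ahsg was at 0 in all mice and albumin at 0.661 to 8.85 CPM, while Apob was at 435 to 710 CPM and Cyp2e1 at 47.2 to 1398 CPM, and the list summed to 665 to 1838 CPM in knockout and 703 to 1361 CPM in control mice. The kidney markers Lrp2 and Umod were at 4466 to 8602 and 1648 to 3196 CPM.

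Of the 44 genes, 43 were expressed enough to test, and 4 were lower in knockout mice: Aldh7a1, Aass, Bckdha and Uroc1. This was 9.30% of the tested enzymes, where 1.58% of all tested genes were lower. The list of enzymes was chosen with earlier results of these data known. No enzyme was called higher, where 0.586% of all tested genes were higher. All 4 knockout mice lay below all 4 control mice for 11 enzymes, where 5.62% of all tested genes did so, and all 4 lay above for 0 enzymes, where 4.17% of all tested genes did so. The median log2 fold change was -0.11 over the 43 enzymes and 0.003 over all tested genes. Of the 39 enzymes that did not pass the test, 29 had negative and 10 had positive fold changes, where 49.5% of all tested genes had negative ones. Without the adjustment, 12 enzymes had a negative and 3 a positive fold change at P under 0.05, where 7.44% and 6.58% of all tested genes did so.

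Of the 4 lower enzymes, the 2 with the largest fold changes act at successive points of lysine breakdown. Aldh7a1 encodes antiquitin, which oxidizes alpha-aminoadipic semialdehyde. It was at 220, 239, 255 and 283 CPM in control mice 1 to 4 and at 87.1, 105, 90.6 and 92.4 CPM in knockout mice 1 to 4. The genotypes were far apart, and the highest knockout mouse was well below the lowest control mouse. The log2 fold change was -1.41 ± 0.10 (SE, n = 4 per genotype; adjusted P = 1.9e-05), a decrease to 0.377 of the control level.

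Aass encodes the bifunctional aminoadipate-semialdehyde synthase that opens the saccharopine route and produces the substrate of antiquitin. It was at 244, 277, 330 and 338 CPM in control mice 1 to 4 and at 144, 157, 137 and 128 CPM in knockout mice 1 to 4. The groups did not overlap, and the 2 control mice with low Xist were the highest. The difference was -1.07 ± 0.12 on the log2 scale (SE, n = 4 per genotype; adjusted P = 0.000371), or 0.476 of the control level. Gcdh, glutaryl-CoA dehydrogenase, acts further down the same pathway. It was at 162, 180, 206 and 213 CPM in control mice 1 to 4 and at 159, 176, 162 and 156 CPM in knockout mice 1 to 4, so the groups overlapped. Its log2 fold change of -0.22 had a 95% interval of -0.44 to -0.0024 and did not pass the test (adjusted P = 0.351).

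Bckdha encodes the alpha subunit of the decarboxylase of the branched-chain alpha-keto acid dehydrogenase complex, the committed step of leucine, isoleucine and valine breakdown. It was at 64.9, 61.2, 67.4 and 67.8 CPM in control mice 1 to 4 and at 36.2, 38.9, 37.4 and 42.6 CPM in knockout mice 1 to 4. The mice of each genotype lay close together and the groups were well separated. Its log2 fold change was -0.75 ± 0.081 (SE, n = 4 per genotype; adjusted P = 0.000321), or 0.594 of the control level. In the Bckdha gene model, 61.7% of the exonic bases are also exonic in B3gnt8, and reads there were not counted for either gene, so its value rests on the remaining 0.728 kilobases and on 675 to 1356 reads per mouse.

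Uroc1 encodes urocanate hydratase, which acts on the product of histidine ammonia lyase. It was at 103, 126, 133 and 112 CPM in control mice 1 to 4 and at 65.2, 75.4, 84.0 and 70.6 CPM in knockout mice 1 to 4. All knockout mice were below all control mice, with the lowest value in the knockout mouse with low Xist. The change was -0.69 ± 0.11 on the log2 scale (SE, n = 4 per genotype; adjusted P = 0.00532), or 0.622 of the control level.

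All 4 of these genes stayed lower and past the threshold in 8 of 8 fits that left out 1 mouse and in 11 of 11 other settings.

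**Figure D1:**
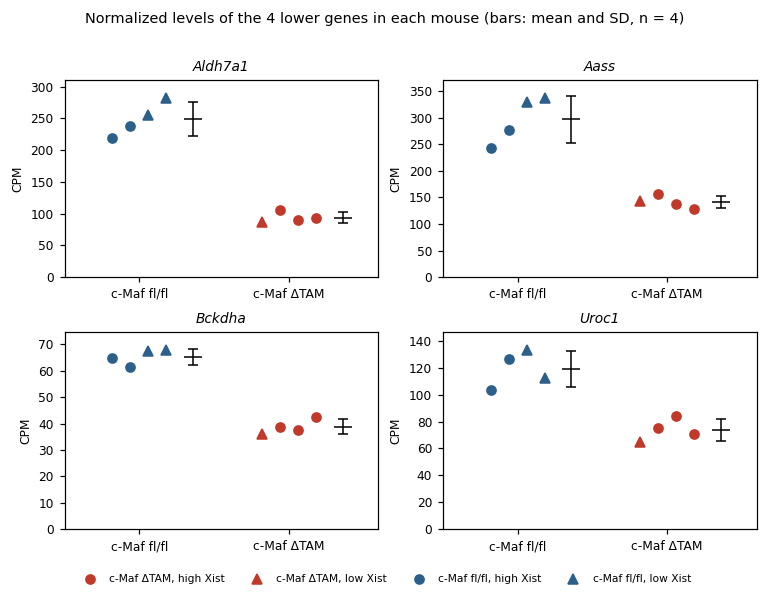
Normalized levels (CPM, linear axis from 0) of Aldh7a1, Aass, Bckdha and Uroc1 in each of the 8 mice, with the mean and SD of each genotype (n = 4). Circles are mice with high Xist and triangles mice with low Xist; for each gene all 4 knockout mice lie below all 4 control mice.

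Markers of the early proximal tubule moved with these genes. Of 10 such markers, 6 were lower and 0 higher. Of all tested genes, 1.58% were lower and 0.586% higher, the shares to set beside each marker list here. The median log2 fold change of the 10 markers was -1.10. Their summed level was 9145 to 12870 CPM in knockout mice and 15880 to 17970 CPM in control mice, with no marker at 0. The lower markers were Slc5a2, Gatm, Slc5a12, Slc34a1, Slc7a7 and Slc4a4, while the endocytic receptors Lrp2 and Cubn, of the same cells, had log2 fold changes of -0.17 (adjusted P = 0.719) and -0.03 (adjusted P = 0.912). None of 8 markers of the late proximal tubule passed the test, and their summed level followed Xist, at 6091 to 7649 CPM in the 3 mice with low Xist and 3219 to 3641 CPM in the 5 with high Xist. Macrophage markers, of which 0 of 8 passed the test and none was at 0 in every mouse, summed to 113 to 123 CPM in knockout mice and 95.5 to 105 CPM in controls. Endothelial markers, of which 1 of 7 was lower, summed to 495 to 560 CPM in knockout mice and 561 to 646 CPM in controls. Of the 7 hepatocyte markers tested, 1 was lower (Ttr), and no marker of the thick ascending limb, distal tubule, collecting duct, podocytes, fibroblasts or lymphocytes passed the test. Of 9 tubular injury markers, 1 was lower (Krt8, log2 fold change -0.72, adjusted P = 0.00517). The part of these markers in the enzyme results was not tested. In whole tissue, fewer cells of a type and less RNA per cell cannot be told apart.

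Because 3 of the 4 lower genes have a RefSeq promoter entry, the 250 bases before their start sites are given. They were searched on both strands for TGCTGA, the half-site of the Maf recognition element that large Maf proteins bind. Capitals would mark this motif, and none of these sequences holds it on either strand. Coordinates are on GRCm38.p6 and each sequence is written 5′ to 3′ on the strand of its gene. The first lies at chr6:23132987-23133236 on the minus strand, the second at chr6:90333039-90333288 on the plus strand and the third at chr7:25658762-25659011 on the minus strand.
Aass: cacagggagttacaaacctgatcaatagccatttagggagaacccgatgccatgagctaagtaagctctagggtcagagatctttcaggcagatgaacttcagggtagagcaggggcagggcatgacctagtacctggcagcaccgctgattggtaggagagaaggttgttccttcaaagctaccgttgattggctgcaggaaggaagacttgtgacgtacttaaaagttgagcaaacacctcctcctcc
Uroc1: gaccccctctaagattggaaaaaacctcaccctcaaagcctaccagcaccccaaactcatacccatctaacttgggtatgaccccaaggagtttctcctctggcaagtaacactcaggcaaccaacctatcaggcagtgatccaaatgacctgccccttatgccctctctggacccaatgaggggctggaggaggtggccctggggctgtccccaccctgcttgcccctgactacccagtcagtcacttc
Bckdha: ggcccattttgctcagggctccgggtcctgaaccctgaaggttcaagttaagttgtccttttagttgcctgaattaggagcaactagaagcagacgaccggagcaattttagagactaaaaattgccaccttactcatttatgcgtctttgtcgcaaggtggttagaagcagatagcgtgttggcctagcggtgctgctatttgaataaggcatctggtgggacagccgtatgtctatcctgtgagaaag

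Of the 40 enzyme genes with an entry, 11 (27.5%) had a match, against 18.0% of the 27025 genes with a RefSeq promoter entry. The matching genes included Aldh4a1, Bckdhb, Gldc, Hibadh, Kmo, Mccc2, Pcca, Prodh, Prodh2 and Shmt1. The longer half-site TGCTGAC, which contains TGCTGA, was in 1 of the 40 (2.5%), against 4.3% of the 27025 genes. The motif TGACTCA, to which AP-1 and Maf proteins can bind, was in 2 of the 40 (5.0%), those of Hpd and Acadsb, against 5.2% of the 27025 genes. A match is a description of the letters only.

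**Figure D2:**
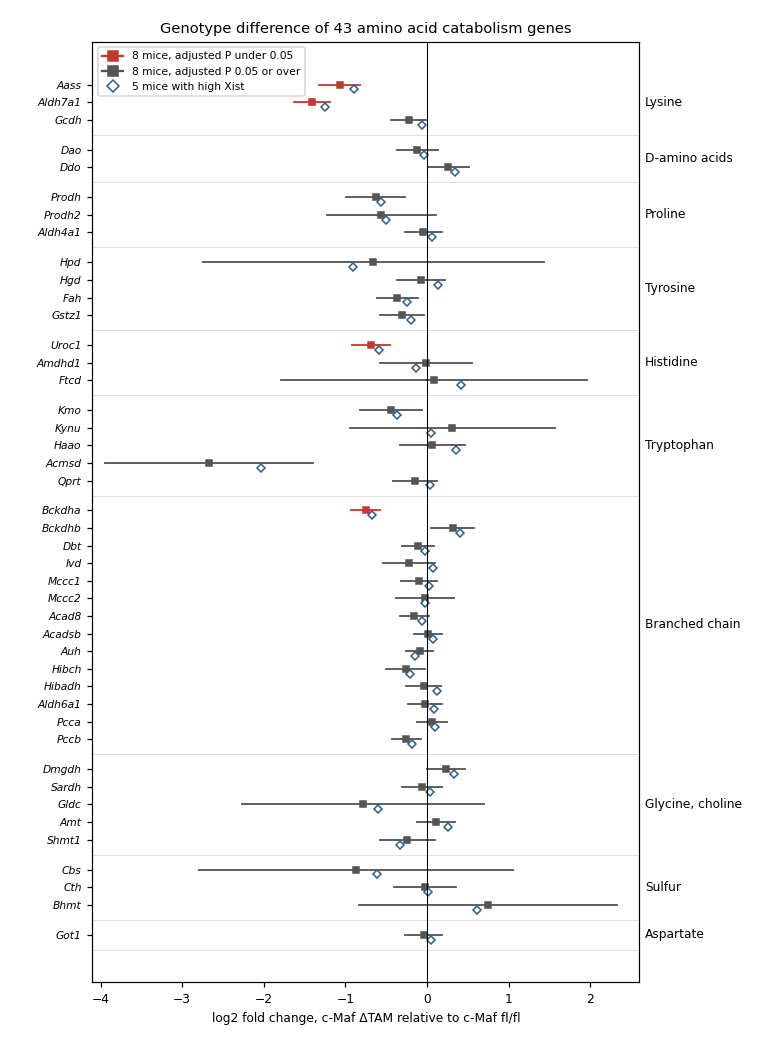
Log2 fold change (horizontal axis, knockout, c-Maf ΔTAM, over control, c-Maf fl/fl) of the 43 tested enzymes by pathway. Squares with lines are the fitted value and its 95% interval over 8 mice, red where adjusted P was under 0.05; open diamonds are the values in the 5 mice with high Xist. The 4 red genes lie at -1.41 to -0.69, while Acmsd lies farther left with a wide interval.

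In the tryptophan pathway, Acmsd had the largest fold change of all 43 enzymes but missed the threshold. Acmsd encodes aminocarboxymuconate semialdehyde decarboxylase, which diverts an intermediate away from NAD synthesis. It was at 70.8, 62.6, 132 and 127 CPM in control mice 1 to 4 and at 12.7, 23.01, 20.9 and 4.82 CPM in knockout mice 1 to 4. Every knockout mouse was below every control mouse, but knockout mouse 4 was well below the other 3 of its group, and control mice with low Xist had 1.94 times the level of those with high Xist. The log2 fold change was -2.67 ± 0.53 (SE, n = 4 per genotype; 95% interval -3.95 to -1.40; adjusted P = 0.0673). It was past the threshold without knockout mouse 4 (log2 fold change -2.38, adjusted P = 0.042), with DESeq2 (adjusted P = 3.42e-05) and with edgeR's exact test (adjusted P = 2.64e-07), but not in the 5 mice with high Xist (log2 fold change -2.04, adjusted P = 0.358).

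Kmo, kynurenine 3-monooxygenase, was at 77.5, 88.1, 72.9 and 73.1 CPM in control mice 1 to 4 and at 36.9, 69.9, 60.9 and 61.9 CPM in knockout mice 1 to 4. The groups did not overlap, and knockout mouse 1 was far below the rest. Its log2 fold change of -0.44 did not pass the test (adjusted P = 0.274). Haao and Qprt, the enzymes that form quinolinate and pass it on to NAD synthesis, had log2 fold changes of 0.07 (95% interval -0.33 to 0.46) and -0.15 (95% interval -0.42 to 0.12), and their groups overlapped. Kynu, kynureninase, followed Xist and is described with the other genes of that pattern.

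In the proline pathway, Prodh, proline dehydrogenase, and Prodh2, hydroxyproline dehydrogenase, had non-overlapping groups without passing the test. Prodh was at 173, 212, 175 and 166 CPM in control mice 1 to 4 and at 79.5, 147, 127 and 117 CPM in knockout mice 1 to 4, with knockout mouse 1 lowest. The difference was -0.63 ± 0.16 on the log2 scale (SE, n = 4 per genotype; adjusted P = 0.0892). Without knockout mouse 1, the value was -0.48 and passed (adjusted P = 0.0482). Prodh2 was at 90.1, 114, 82.4 and 78.3 CPM in control mice 1 to 4 and at 30.2, 76.9, 75.4 and 65.2 CPM in knockout mice 1 to 4. Its highest knockout mouse was just below the lowest control mouse, and the log2 fold change was -0.56 ± 0.29 (SE, n = 4 per genotype; adjusted P = 0.45).

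Aldh4a1, the dehydrogenase that the products of both oxidases reach, was at 172, 173, 180 and 180 CPM in control mice 1 to 4 and at 143, 200, 180 and 160 CPM in knockout mice 1 to 4. The knockout mice lay on both sides of the controls. Its fold change was -0.05 on the log2 scale, with a 95% interval of -0.27 to 0.18. Of its exonic bases, 32.5% are shared with Gm21969.

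Whether mice of 1 Xist class alone gave the same calls was examined because the genotypes held unequal numbers of each class. With log Xist level as a covariate, 10 enzymes were lower, where 4.23% of all tested genes were lower. In the 5 mice with high Xist, of which 3 were knockout and 2 control, 10 enzymes were lower, where 2.22% of all tested genes were. Both fits called the 4 genes above and, in addition, Cbs, Kmo, Prodh, Prodh2 and Shmt1, so 9 enzymes were called by both. Pccb was added only by the covariate fit and Gldc only by the fit to mice with high Xist. With all 8 mice and no covariate, DESeq2 called 7 enzymes lower, adding Acmsd, Pccb and Prodh, where 2.81% of all tested genes were lower. edgeR's exact test called 6, adding Acmsd and Prodh, where 2.11% of all tested genes were lower. None of these fits called an enzyme higher.

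Prodh had the smallest adjusted P of the added genes in the covariate fit (log2 fold change -0.73, adjusted P = 0.00122), followed by Kmo (-0.56, adjusted P = 0.00327). Among the high-Xist mice alone, Prodh had a log2 fold change of -0.57 (adjusted P = 0.00908) and that of Kmo -0.37 (adjusted P = 0.0396). Gldc, the decarboxylating subunit of the glycine cleavage system, was at 218, 240, 172 and 180 CPM in control mice 1 to 4 and at 18.2, 147, 169 and 137 CPM in knockout mice 1 to 4. The groups did not overlap, and knockout mouse 1 stood far below all others. Over 8 mice the log2 fold change was -0.78 with a 95% interval of -2.26 to 0.70, and in the high-Xist mice alone -0.60 (adjusted P = 0.00137). Shmt1, cytosolic serine hydroxymethyltransferase, was at 78.7, 78.3, 58.4 and 57.4 CPM in control mice 1 to 4 and at 42.6, 61.8, 66.2 and 60.2 CPM in knockout mice 1 to 4. Its 2 control mice with high Xist were above all other mice, and the fit to mice with high Xist gave a log2 fold change of -0.32 (adjusted P = 0.0421).

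**Figure D3:**
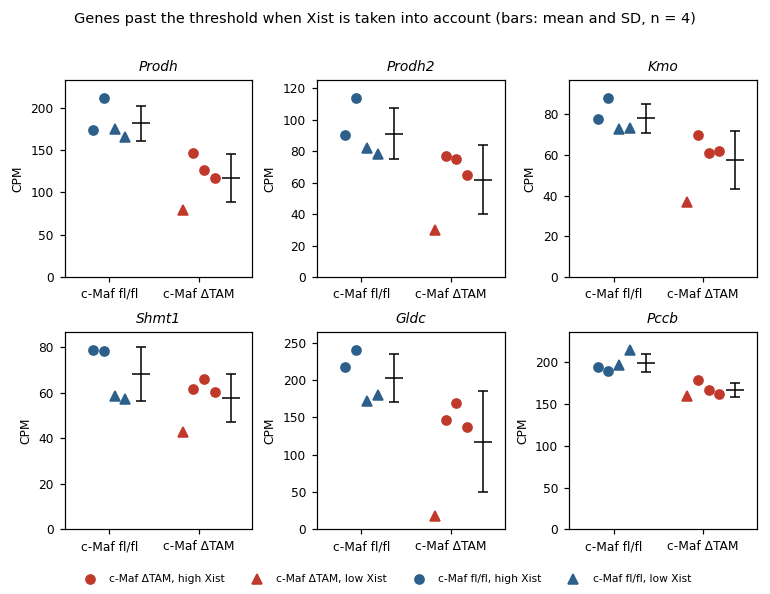
Normalized levels (CPM, linear axis from 0) of Prodh, Prodh2, Kmo, Shmt1, Gldc and Pccb in each mouse, with the mean and SD of each genotype (n = 4). Circles are mice with high Xist and triangles mice with low Xist; the knockout mouse with low Xist is the lowest of its genotype in all 6 panels, far below the rest for Gldc at 18.2 CPM.

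For 5 enzymes the control mice of the 2 Xist classes differed by more than 2-fold. How many of all tested genes did so was not counted. None of these 5 enzymes was among the 4 lower genes. Cbs, cystathionine beta-synthase, which opens transsulfuration, was at 79.7 and 88.7 CPM in the control mice with high Xist and at 273 and 334 CPM in those with low Xist. In knockout mice it was at 61.4, 59.4 and 44.5 CPM with high Xist and at 260 CPM in the mouse with low Xist. Within each Xist class the knockout mice were the lower, although over all 8 mice the groups overlapped (log2 fold change -0.87, adjusted P = 0.708). With the Xist covariate the log2 fold change was -0.61 (adjusted P = 0.0466).

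Ftcd, the formiminotransferase cyclodeaminase at the end of histidine breakdown, was also higher in mice with low Xist. It was at 4.02, 3.88, 15.4 and 15.6 CPM in control mice 1 to 4 and at 25.03, 5.60, 4.55 and 5.69 CPM in knockout mice 1 to 4. The 3 mice with low Xist were the highest whatever their genotype. Within each class the knockout mice were the higher, and the log2 fold change for genotype was 0.08 (95% interval -1.79 to 1.96).

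Hpd, 4-hydroxyphenylpyruvate dioxygenase of tyrosine breakdown, had the opposite order. It was at 95.1, 123, 29.4 and 34.7 CPM in control mice 1 to 4 and at 4.22, 72.3, 56.7 and 46.0 CPM in knockout mice 1 to 4. Within each class the knockout mice were the lower, and the log2 fold change over 8 mice was -0.66 (95% interval -2.75 to 1.44). Kynu was at 31.2, 33.7, 10.7 and 13.6 CPM in control mice 1 to 4 and at 10.3, 35.9, 33.9 and 30.6 CPM in knockout mice 1 to 4, so the 3 mice with low Xist were the lowest of both genotypes. Bhmt, betaine-homocysteine methyltransferase, was low, at 2.16, 2.80, 0.609 and 1.35 CPM in control mice 1 to 4 and at 0.356, 3.54, 5.21 and 2.65 CPM in knockout mice 1 to 4. Its log2 fold change of 0.75 did not pass the test (adjusted P = 0.704).

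**Figure D4:**
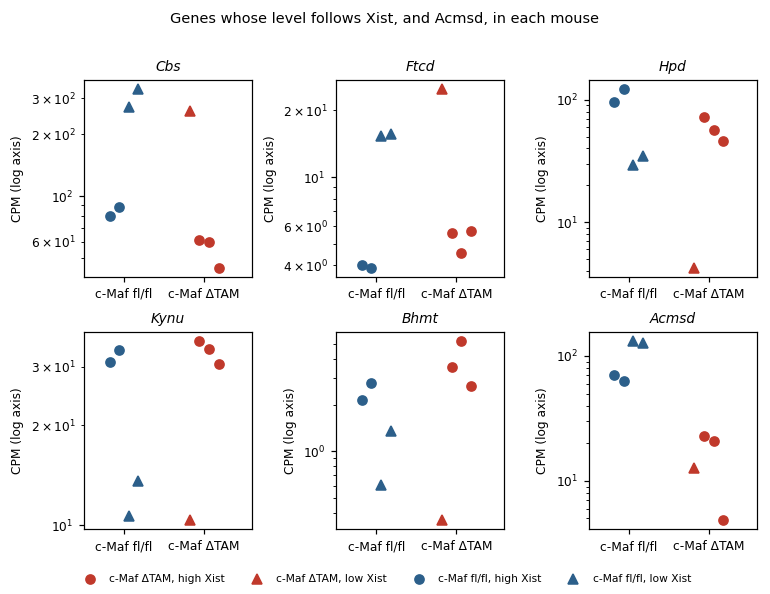
Normalized levels (CPM, log axis) of Cbs, Ftcd, Hpd, Kynu, Bhmt and Acmsd in each mouse. Circles are mice with high Xist and triangles mice with low Xist; the first 5 genes separate by Xist in both genotypes, whereas for Acmsd every knockout mouse lies below every control mouse.

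The other enzymes of tyrosine breakdown had negative fold changes that did not pass the test. Fah, fumarylacetoacetase, the last step, was at 172, 197, 191 and 245 CPM in control mice 1 to 4 and at 158, 171, 157 and 141 CPM in knockout mice 1 to 4. The groups did not overlap, but the nearest mice were close. On the log2 scale the fold change was -0.36 ± 0.11 (SE, n = 4 per genotype; adjusted P = 0.153). Gstz1, maleylacetoacetate isomerase, had a log2 fold change of -0.30 (95% interval -0.57 to -0.04; adjusted P = 0.286), and Hgd, homogentisate 1,2-dioxygenase, of -0.07 (95% interval -0.36 to 0.23).

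In histidine breakdown, the enzymes on either side of Uroc1 were scarce. Hal, histidine ammonia lyase, which supplies its substrate, was at 0 to 0.154 CPM over the 8 mice and was not tested. Amdhd1, imidazolonepropionase, which follows it, was at 1.47 to 2.65 CPM with overlapping groups.

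Of the 14 enzymes for branched-chain amino acids, Bckdha was lower, 0 were higher and 13 did not pass the test, 10 of them with negative and 3 with positive fold changes. Bckdhb, the beta subunit that pairs with Bckdha, was at 24.7, 23.9, 25.1 and 23.2 CPM in control mice 1 to 4 and at 23.8, 36, 31.7 and 29.0 CPM in knockout mice 1 to 4. The 3 knockout mice with high Xist were above all controls and the one with low Xist was among them. Its log2 fold change was 0.31 (95% interval 0.05 to 0.57; adjusted P = 0.259). Dbt, the acyltransferase core of the same complex, had a log2 fold change of -0.11 (95% interval -0.30 to 0.09).

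Pccb, the beta subunit of propionyl-CoA carboxylase, was at 195, 190, 196 and 215 CPM in control mice 1 to 4 and at 160, 178, 167 and 162 CPM in knockout mice 1 to 4. The groups did not overlap, and the log2 fold change was -0.25 ± 0.081 (SE, n = 4 per genotype; adjusted P = 0.164). Pcca, its alpha subunit, had a log2 fold change of 0.06 (95% interval -0.13 to 0.25). Aldh6a1, methylmalonate semialdehyde dehydrogenase, was at 441, 484, 520 and 550 CPM in control mice 1 to 4 and at 491, 535, 475 and 460 CPM in knockout mice 1 to 4. The control range contained the knockout range, and the interval of the log2 fold change ran from -0.23 to 0.18. Of its exonic bases, 18.6% are shared with Bbof1.

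The remaining branched-chain enzymes had overlapping groups. For leucine, the log2 fold changes were -0.22 for Ivd, -0.10 for Mccc1, -0.03 for Mccc2 and -0.09 for Auh. For isoleucine and valine, they were 0.01 for Acadsb, -0.15 for Acad8, -0.26 for Hibch and -0.04 for Hibadh.

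Among enzymes of glycine and choline derivatives, Dmgdh, dimethylglycine dehydrogenase, was at 74.1, 89.9, 80.1 and 86.7 CPM in control mice 1 to 4 and at 79.6, 98.8, 105 and 107 CPM in knockout mice 1 to 4. The groups overlapped through knockout mouse 1, and the log2 fold change of 0.24 did not pass the test (adjusted P = 0.343). Sardh, sarcosine dehydrogenase, the next step, was at 376, 428, 409 and 400 CPM in control mice 1 to 4 and at 305, 422, 420 and 399 CPM in knockout mice 1 to 4, with knockout mouse 1 lowest. On the log2 scale its fold change was -0.06 (95% interval -0.30 to 0.18). Amt, the aminomethyltransferase of the glycine cleavage system, had a log2 fold change of 0.11 (95% interval -0.13 to 0.35).

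Cth, cystathionine gamma-lyase, which follows Cbs, was at 94.8, 123, 92.2 and 91.9 CPM in control mice 1 to 4 and at 66.5, 109, 119 and 101 CPM in knockout mice 1 to 4. The groups overlapped, and the 95% interval of the log2 fold change was -0.40 to 0.35. Got1, cytosolic aspartate aminotransferase, was at 84.1, 86.5, 89.2 and 80.3 CPM in control mice 1 to 4 and at 66.0, 93.0, 89.5 and 82.0 CPM in knockout mice 1 to 4, again with knockout mouse 1 lowest. The interval of its log2 fold change was -0.27 to 0.19.

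Of the D-amino acid oxidases, Dao, which oxidizes neutral D-amino acids, was at 168, 186, 221 and 215 CPM in control mice 1 to 4 and at 207, 188, 177 and 155 CPM in knockout mice 1 to 4. Ddo, D-aspartate oxidase, was at 43.5, 51.6, 55.7 and 55.7 CPM in control mice 1 to 4 and at 65.9, 60.2, 70.9 and 50.8 CPM in knockout mice 1 to 4. Both pairs of groups overlapped. The log2 fold changes were -0.12 (95% interval -0.37 to 0.13) for Dao and 0.26 (95% interval 0.01 to 0.52; adjusted P = 0.335) for Ddo.

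**Figure D5:**
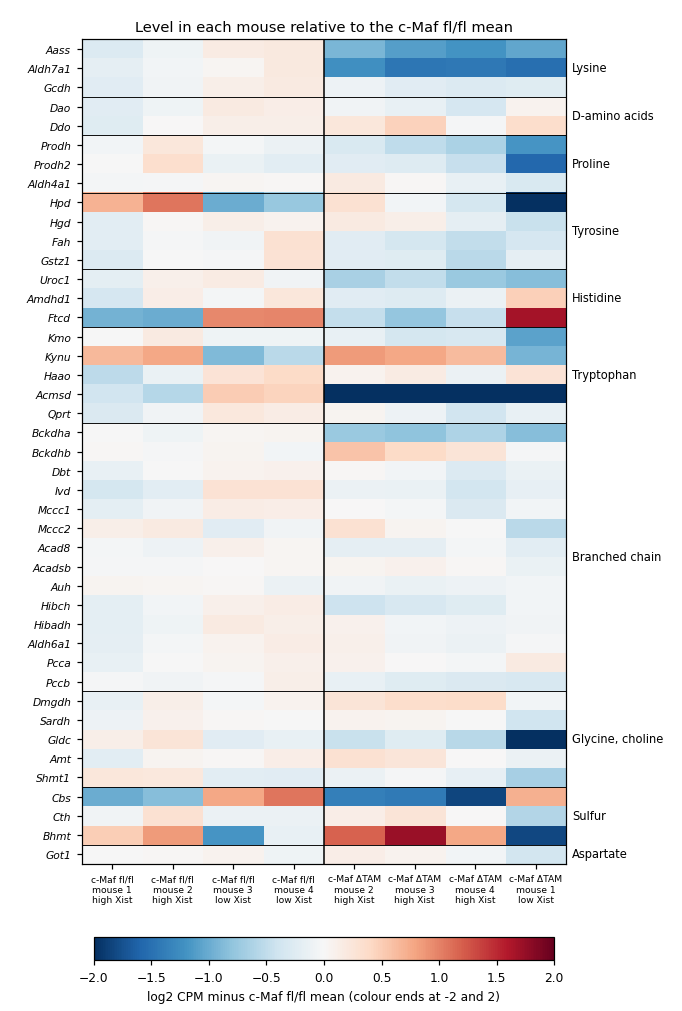
Level of the 43 tested enzymes (rows, by pathway) in each mouse (columns) as log2 CPM minus the control mean, from blue (lower) to red (higher). In all 4 knockout mice, 18 of the 43 enzymes are below the control mean and 0 above it, among them Acmsd, Aldh7a1, Aass, Bckdha and Uroc1. Cbs, Ftcd and Kynu change colour with Xist in both genotypes, and knockout mouse 1 is the lowest of all mice for 20 enzymes. These counts were not made over all tested genes.

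The summed level of the 44 enzymes was 5061, 5625, 5948 and 6152 CPM in control mice 1 to 4 and 4355, 5104, 4872 and 4415 CPM in knockout mice 1 to 4. Knockout mouse 2 was above control mouse 1, so the groups overlapped by this 1 pair. In knockout mouse 1, whose mitochondrial share was the highest, 20 enzymes had their lowest level of all 8 mice, and in knockout mouse 4, 11 did. How many of all tested genes were lowest in these mice was not counted. The part of these low levels in the results was not tested, beyond the fits without each mouse.

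Levels between genes were compared as CPM per kilobase of exon that is not shared with another gene. In control mice they ran from 0.0117 for Hal to 106 ± 10.02 (SD, n = 4) for Aldh6a1, and 36 of the 44 enzymes were above 10. Fah (90.8 ± 14.1), Bckdha (89.7 ± 4.2), Hgd (79.4 ± 7.9), Aass (77.8 ± 11.7) and Sardh (76.9 ± 4.1) came next. Fah and Bckdha differed by less than the SD of either, as did Hgd, Aass and Sardh among themselves, so these orders are not resolved. In knockout mice, Bckdha stood at 53.3 ± 3.8 and rank 8 instead of 3, Aass at 37.1 ± 3.2 and rank 11 instead of 5, and Aldh7a1 at 19.9 ± 1.7 and rank 24 instead of 12. Acmsd went from 35.8 ± 13.3 and rank 15 to 5.60 ± 3.04 and rank 38. Aldh6a1 stayed at rank 1 with 104 ± 6.9. Over full exonic length, Bckdha was at 34.4 ± 1.6 and rank 15 in control mice, so its rank depends on the length used.

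Of 83 other genes of amino acid metabolism found in the table, 75 were tested, 10 were lower and 1 was higher, where 1.58% of all tested genes were lower and 0.586% higher, and the median log2 fold change was -0.16. The count of lower genes was 6 without knockout mouse 2 and 5 without knockout mouse 3, where 0.96% and 0.913% of all tested genes were lower. This list, like that of the enzymes, was chosen with earlier results of these data known. Aspa, aspartoacylase, had the largest change. It was at 66.2, 68.2, 80.4 and 81.6 CPM in control mice 1 to 4 and at 22.4, 21.6, 21.8 and 17.9 CPM in knockout mice 1 to 4. The groups were far apart (log2 fold change -1.82 ± 0.11, SE, n = 4 per genotype; adjusted P = 4.9e-06).

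Gpt2, mitochondrial alanine aminotransferase, fell by 1.46 on the log2 scale (adjusted P = 0.0194), and Aldh9a1, an aldehyde dehydrogenase of carnitine synthesis, by 1.17 (adjusted P = 0.000113). Afmid, kynurenine formamidase of the tryptophan pathway, fell by 1.38 (adjusted P = 0.00414), with 46.6% of its exonic bases shared with other genes. Qdpr, which regenerates the cofactor tetrahydrobiopterin, fell by 0.66 (adjusted P = 0.00197). Grhpr, which reduces glyoxylate, fell by 0.68 (adjusted P = 0.0144), Ehhadh, a peroxisomal bifunctional enzyme, by 0.64 (adjusted P = 0.0453), and Etfb, a subunit of the electron transfer flavoprotein, by 0.70 (adjusted P = 0.0453), although 58.3% of the exonic bases of Etfb are shared with other genes. Pcbd1, which recycles the same cofactor, fell by 0.50 (adjusted P = 0.0212). Mat2a, which makes S-adenosylmethionine, was the higher gene, at 139, 165, 166 and 185 CPM in control mice 1 to 4 and 287, 260, 263 and 237 CPM in knockout mice 1 to 4 (log2 fold change 0.68 ± 0.10, SE, n = 4 per genotype; adjusted P = 0.00461). For each of these genes the groups did not overlap. In the 8 fits that left out 1 mouse, Aspa, Aldh9a1, Afmid, Qdpr and Mat2a were called in all 8 and Grhpr in 7, losing the call without knockout mouse 3 (adjusted P = 0.0722). Gpt2, Etfb and Pcbd1 were called in 3 of the 8, and Ehhadh in 2. Their highest adjusted P was 0.0709 for Gpt2, without knockout mouse 2, and, without knockout mouse 3, 0.129 for Etfb, 0.0796 for Pcbd1 and 0.162 for Ehhadh.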

How the data were processed

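Whole-kidney RNA was depleted of ribosomal RNA and sequenced as short paired-end reads with a directional kit. The deposited values are raw counts per gene that the authors made with featureCounts. The file header gives version 2.0.1 with Ensembl 102 gene models, and the submitters' processing notes give Subread 2.0.2, edgeR 3.36.0 and GRCm38. The study's methods describe mapping in another program, and the aligner behind this table is not given in the sources used here. The recorded command counted each read of a pair separately, ignored strand, and left out reads on exons of more than 1 gene. Members and lists were chosen with earlier results of these data known.

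Genes were filtered with filterByExpr, normalized by trimmed mean of M-values (TMM) and tested with edgeR 4.0.16 (robust quasi-likelihood test, R 4.3.3), 4 mice against 4, with no covariate and Benjamini-Hochberg adjustment at 0.05. CPM uses TMM library sizes. The script was tested on simulated data. Alternatives used limma 3.58.1 and DESeq2 1.42.0. Mice with at least 1000 Xist counts were called high. Per-mouse values were given for called enzymes and, in each pathway, for the uncalled ones with the smallest P and the highest level per kilobase. Per-mouse values of Kmo, Prodh2, Gldc, Shmt1, Cbs, Hpd, Kynu and Bckdhb, and the naming of Pcbd1, were chosen after their values were seen. Promoters are from RefSeq. The values of 1 lower gene among the other pathway genes and 1 promoter are not reported here. Libraries of 1 genotype differed by 3.03 to 8.33 times sampling noise, so none was a duplicate.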

Additional observations from a re-analysis of the deposited data

Results flagged for a closer look

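In 6 of the 86 sets of 4 mice, formed by 1 enzyme and 1 genotype, the highest or the lowest mouse stood apart from its group, by a gap divided by the range of the group (Dixon's ratio). Chance flags about 1 in 20 such sets, which is 4.3 of 86. In knockout mouse 1, which had low Xist, the highest level of its group was seen for Ftcd (ratio 0.944; 25.03 CPM against 4.55 to 5.69 CPM), Cbs (ratio 0.922; 260 CPM against 44.5 to 61.4 CPM) and Amdhd1 (ratio 0.835; 2.65 CPM against 1.55 to 1.73 CPM). Acad8 was highest in knockout mouse 4 (ratio 0.851; 45.5 CPM against 40.5 to 41.2 CPM). In control mice, Auh was lowest in mouse 4 (ratio 0.85; 55.4 CPM against 61.6 to 62.6 CPM) and Cth highest in mouse 2 (ratio 0.905; 123 CPM against 91.9 to 94.8 CPM). None of these was among the 4 lower enzymes.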

How the results depend on the processing

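The 4 lower enzymes were called in all 19 alternatives, and no enzyme was called higher in any. The count of lower enzymes was 7 with DESeq2, 10 with the Xist covariate and 10 in mice with high Xist. Of all genes, 2.81%, 4.23% and 2.22% were lower in these fits. The enzyme count was 4 to 5 when 1 mouse was left out, where 0.913% to 1.51% of all genes were lower. Over all genes, 436 were called, and this count was 886 with DESeq2, 682 with the exact test, 1374 with the Xist covariate, 789 in mice with high Xist and 239 to 452 when 1 mouse was left out, lowest without knockout mouse 3. Low counts also followed without knockout mouse 2 (256) and control mouse 3 (285). Of the other pathway genes, the lower ones numbered 21 and the higher ones 4 with the Xist covariate, where 4.23% of all genes were lower and 2.59% higher. In mice with high Xist 2 were higher, where 1.53% of all genes were. The lower ones numbered 5 to 11 when 1 mouse was left out, with 6 without knockout mouse 2 and 5 without knockout mouse 3. Those fits had 0.913% to 1.51% of all genes lower. Maf had a log2 fold change of -3.87 in mice with high Xist (adjusted P = 0.108, edgeR), where only 5 mice entered. The cause of the other changes was not tested.

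Replicate numbers did not pair the mice: the deviations of same-numbered mice correlated at -0.373, 0.152, -0.11 and -0.331. With the number as a replicate block, 129 genes were called. Of the other pathway genes, 4 were lower (Aspa, Aldh9a1, Afmid and Qdpr) and 0 higher. Of all tested genes, 0.551% were lower and 0.0893% higher in that fit. Mat2a lost its call there (adjusted P = 0.0907, edgeR). The log2 fold change of Maf was -4.28 (adjusted P = 0.0516, edgeR) in that fit. Aldh7a1, Aass, Bckdha and Uroc1 were again the 4 lower enzymes of the list.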
